A study of Mus musculus with 6 samples.

Results

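The 10 genes described here code for the enzymes that make serine from a glycolytic intermediate (Phgdh, Psat1 and Psph) and for the cytosolic (Shmt1, Mthfd1 and Aldh1l1) and mitochondrial (Shmt2, Mthfd2, Mthfd1l and Aldh1l2) enzymes that move one-carbon units on folate. They were taken by symbol from a deposited table of read counts per gene, in which they are 10 of 49671 genes. Total RNA had been sequenced from pancreas of C57BL/6J mouse embryos at 14.5 days post coitum, in 3 controls and in 3 samples given 10 µM AMI-5. The study asked what this compound does to differentiation of the organ. AMI-5 is a small molecule that inhibits protein methyltransferases, including those that act on arginine. How the tissue was grown and treated is described in publications not used here, and no label ties samples to separate cultures or litters, so p-values measure only how far these samples spread, and part of that spread may be technical. The labels name an earlier version of the library kit for samples marked A. The titles carry A with a number for the controls and Am with a number for AMI-5. The mark was read as that of the controls, which the labels do not say outright. On that reading, kit version and treatment cannot be told apart in any comparison given here.

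Serine synthesis starts when Phgdh oxidizes 3-phosphoglycerate, continues with a transfer of an amino group by Psat1, and ends when Psph removes the phosphate. Shmt1 in the cytosol and Shmt2 in mitochondria convert serine and tetrahydrofolate to glycine and 5,10-methylene-tetrahydrofolate. The one-carbon unit is then oxidized, through Mthfd2 and Mthfd1l, to formate in mitochondria, and formate is taken up again by the trifunctional Mthfd1 in the cytosol for purine and thymidylate synthesis. Aldh1l1 and Aldh1l2 instead release the unit as carbon dioxide, with formation of NADPH, in the cytosol and in mitochondria respectively.

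The control libraries held 12445425 to 13321899 reads assigned to genes and the AMI-5 libraries 22894312 to 24805188, so values of the controls rest on fewer reads. One library stood apart by its tissue content. In AMI-5 replicate 2, the liver transcripts Alb and Afp were at 596 and 619 CPM (read counts relative to library size, scaled between libraries by edgeR's TMM method), whereas no other library of the treated group exceeded 17.6 CPM for Alb or 15.9 CPM for Afp. Summed levels of 7 liver markers were 378 to 431 CPM in the controls and 198 to 1617 CPM with AMI-5. Ttr alone made up most of the control sum, at 357 ± 22.2 CPM against 193 ± 30.6 CPM with AMI-5 (SD, n = 3). Alb and Afp were at 11.0 ± 1.20 and 25.9 ± 3.49 CPM in the controls (SD, n = 3). Markers of pancreatic epithelium were present in all libraries, with a summed level of 1529 to 1734 CPM in the controls and 1280 to 1412 CPM with AMI-5, and 6 of 7 were lower with the compound. Of 8 acinar markers 4 were higher, none lower and 4 not called, with sums of 38776 to 52326 CPM against 75864 to 96554 CPM. Ctrb1 alone made up most of each sum, at 38028 ± 5869 against 69772 ± 9357 CPM with AMI-5 (SD, n = 3). Leukocyte markers summed to 150 to 185 CPM in the controls and to 215 to 261 CPM with AMI-5, with 3 of 5 higher. Of 7 endocrine markers 1 was higher and 2 were lower, of 8 mesenchymal markers 1 and 3, of 7 neural and glial markers 2 and 2, and of 4 erythroid markers tested 1 and 2, while none of 5 endothelial markers passed the test. Higher and lower here are calls of the test described below, which called 27.5% of all tested genes higher and 26.6% lower. Marker counts near those shares do not set a cell type apart. In bulk tissue, fewer cells of a type and less RNA per cell cannot be told apart. The part of these marker differences in the enzyme values was not tested.

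Genes were called changed at an adjusted p under 0.05 in edgeR's quasi-likelihood test over 17519 genes, and fold changes are AMI-5 over control. All 10 enzyme genes passed the filter on low counts. The test called 4 of them higher (Psat1, Mthfd2, Mthfd1l and Aldh1l2), 4 lower (Phgdh, Shmt1, Mthfd1 and Shmt2) and did not call Psph and Aldh1l1. With reads of pseudogene copies added to the genes, as described below for Phgdh, the split was 5 higher and 3 lower. Over all genes tested, 27.5% were called higher and 26.6% lower, 54.1% in all, so a call by itself did not set an enzyme gene apart. The libraries of the groups did not overlap for the same 8 genes, against 61.9% of all genes (31.3% with the AMI-5 libraries above and 30.6% with them below). The median log2 fold change of the 10 genes was 0.23 and that of all genes tested -0.0013. Without AMI-5 replicate 2, the library with liver transcripts, again 4 enzyme genes were higher and 4 lower.

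**Figure D1:**
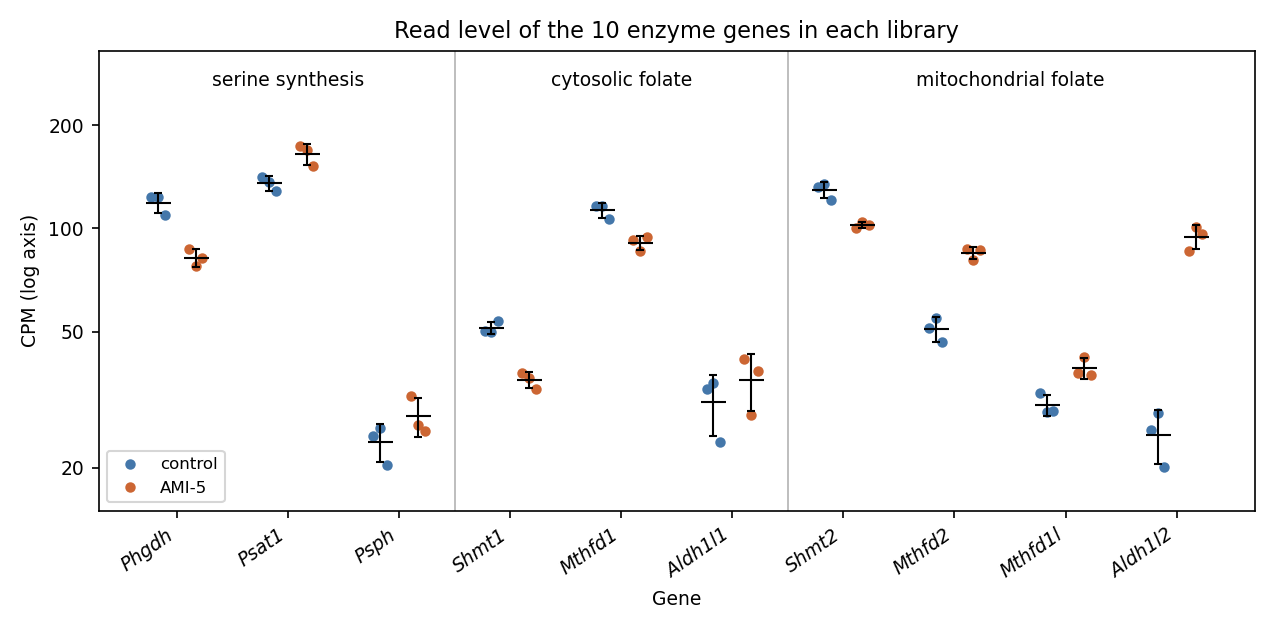
Level of each enzyme gene in CPM (logarithmic axis) in the 3 control (blue) and 3 AMI-5 (orange) libraries, with horizontal lines for the mean and bars for the SD; genes are grouped by role. The groups overlap for Psph and Aldh1l1, and the widest gap is that of Aldh1l2, at 20.2 to 29.0 CPM in the controls and 86.1 to 101 CPM with AMI-5.

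Phgdh, the first enzyme of serine synthesis, needs its sequence beside its values. The gene (ENSMUSG00000053398, mm10 chr3:98313170-98339990, minus strand) shares 47.8% of its exonic 50-base words with another annotated gene, most of them with processed pseudogenes, which are intronless copies of an mRNA inserted elsewhere in the genome. The deposited table counts 12 such copies apart from Phgdh. The most read of these, Gm7901, aligned to 1595 of the 1599 coding bases of Phgdh with 18 differing bases (98.9% identity) and held an identical run of 312 bases. Gm9347 had 97.8% identity with 35 differing bases, Gm5847 96.2% with 60, and Gm13337 96.2% with 61. The 100 bases below, which begin at coding position 166 and lie in 1 exon of Phgdh, show how near the 4 copies are. They come from the GENCODE M21 transcripts, are written on the strand of the transcript, and carry capitals where a copy differs from Phgdh.
Phgdh: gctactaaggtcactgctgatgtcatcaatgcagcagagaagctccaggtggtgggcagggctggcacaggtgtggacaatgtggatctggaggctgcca
Gm7901: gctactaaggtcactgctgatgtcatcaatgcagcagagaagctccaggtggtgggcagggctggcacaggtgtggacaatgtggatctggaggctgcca
Gm9347: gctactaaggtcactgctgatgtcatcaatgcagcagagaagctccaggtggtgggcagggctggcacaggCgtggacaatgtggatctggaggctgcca
Gm5847: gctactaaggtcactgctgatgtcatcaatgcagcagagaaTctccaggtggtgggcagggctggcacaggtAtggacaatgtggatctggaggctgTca
Gm13337: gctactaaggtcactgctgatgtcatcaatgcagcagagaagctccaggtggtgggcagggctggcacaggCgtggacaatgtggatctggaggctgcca
The lines are chr3:98334532-98334631 (minus), chr8:75712930-75713029 (minus), chr7:136811073-136811172 (plus), chr3:65613754-65613853 (plus) and chr2:22067991-22068090 (plus) of mm10, in that order. In this stretch Gm7901 has 0 differing bases, Gm9347 and Gm13337 have 1 each and Gm5847 has 3. The stretch was chosen as one where the copies differ least.

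Counted by itself, Phgdh was at 123, 123 and 110 CPM in control replicates 1, 2 and 3 and at 87.1, 77.5 and 81.9 CPM in AMI-5 replicates 1, 2 and 3. Every AMI-5 library lay below every control, and the mean fell by 30.8%, from 119 ± 7.96 to 82.2 ± 4.80 CPM (SD, n = 3; log2 fold change -0.53, SE 0.068, edgeR adjusted p = 4.11e-05). The copies had higher levels with AMI-5. They held 112, 125 and 114 reads in the control libraries and 1929, 1719 and 1928 reads in the AMI-5 libraries, beside 1592, 1691 and 1445 and then 1941, 1740 and 1938 reads of Phgdh itself. Copies thus took a small share of the combined reads in the controls and about as many reads as the gene with AMI-5. The share of Phgdh itself was 93.1% ± 0.371 in the controls and 50.2% ± 0.0941 with AMI-5 (SD, n = 3). Read rates of all 12 copies were higher with AMI-5, and 5 of the 12 had no read in any control. Gm7901 rose from 8.18 ± 0.361 to 57.5 ± 4.31 CPM (SD, n = 3; log2 fold change 2.81, edgeR adjusted p = 1.03e-10). It held 326 reads over the 3 controls and 3934 over the 3 AMI-5 libraries, Gm9347 12 and 630, Gm5847 2 and 345, and Gm13337 3 and 282.

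Summed with its copies, Phgdh turned direction. The sum was 132, 132 and 118 CPM in the controls and 174, 154 and 163 CPM with AMI-5, again without overlap, and the mean rose from 128 ± 8.11 to 164 ± 9.79 CPM (SD, n = 3; log2 fold change 0.36, SE 0.066, edgeR adjusted p = 0.00066). The direction of Phgdh thus depends on whether reads of the near-identical copies are counted with the gene, and its value is uncertain for that reason. Other processed pseudogenes were called higher too: of 1679 tested, 1576 were higher with AMI-5 and 30 lower. Over all genes tested the shares were 27.5% and 26.6%. The filter on low counts keeps a gene with enough reads in either group alone. A copy nearly without control reads could thus enter only as higher, so part of this count was set by the filter. How reads that fit several places were counted is not given in the sources used here, and whether the copies' reads come from Phgdh was not tested.

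**Figure D2:**
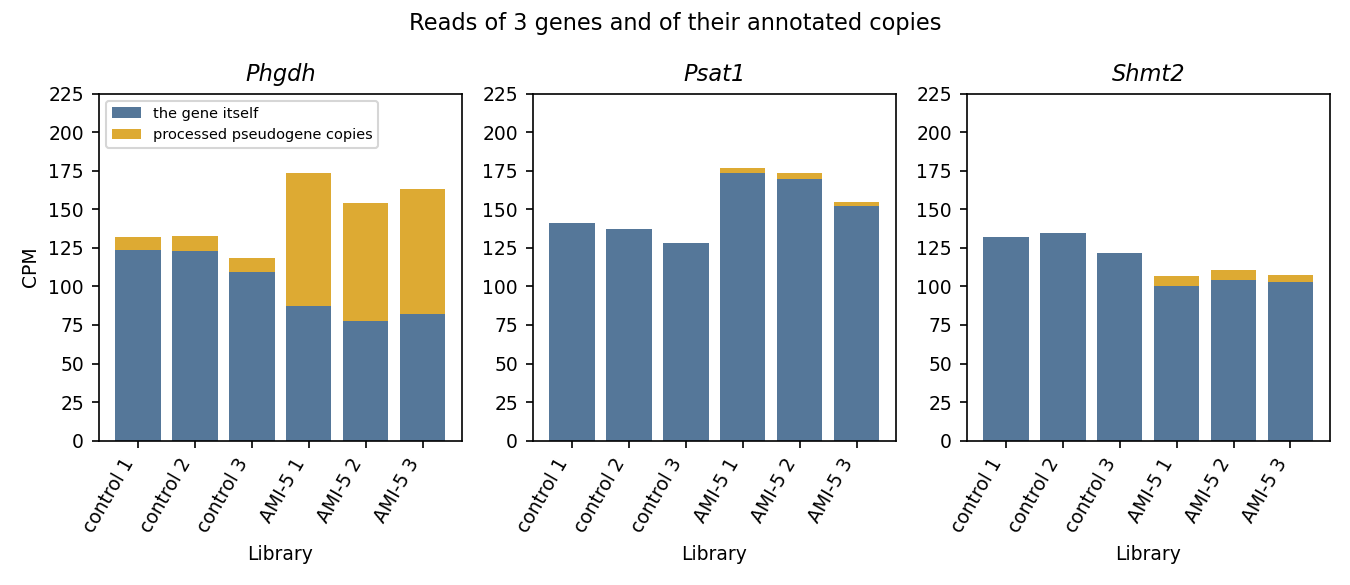
Stacked bars of the level in CPM of Phgdh, Psat1 and Shmt2 (blue) and of their annotated processed pseudogene copies (yellow) in each of the 6 libraries. For Phgdh the blue part is lower with AMI-5 while the whole bar is higher, and for Psat1 and Shmt2 the copies add little.

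Psat1, the aminotransferase of the second step (ENSMUSG00000024640, chr19:15904678-15947337, minus strand), rose. Its level was 141, 137 and 128 CPM in the controls and 174, 170 and 152 CPM with AMI-5. The lowest AMI-5 library, replicate 3, lay above the highest control. The mean went from 136 ± 6.60 to 165 ± 11.7 CPM (SD, n = 3; log2 fold change 0.28, SE 0.066, edgeR adjusted p = 0.00317). Its 1 processed copy in the table, Gm12611, had 1 read in the controls and 217 with AMI-5, and adding it gave a log2 fold change of 0.31 (edgeR adjusted p = 0.00171). The log2 fold change of Psat1 was 0.17 (adjusted p = 0.0306) when fold changes were adjusted for the GC content and length of genes, with a trend drawn through all genes. Psph, the phosphatase of the last step (ENSMUSG00000029446, chr5:129765558-129787449, minus strand), was the least read of these 3 genes. It was at 24.8, 26.2 and 20.4 CPM in the controls and at 32.5, 26.6 and 25.7 CPM with AMI-5, so the groups overlapped. The difference was not called (23.8 ± 3.05 against 28.3 ± 3.71 CPM, SD, n = 3; log2 fold change 0.25, SE 0.12, edgeR adjusted p = 0.0929). It was called under upper-quartile scaling of the libraries (log2 fold change 0.30, adjusted p = 0.0465) and in 4 of the other 18 alternatives that tested it, and was smaller without control replicate 3 (0.15, adjusted p = 0.310) or AMI-5 replicate 1 (0.15, adjusted p = 0.294). Cct6a, a chaperonin subunit gene on the opposite strand, covers 10.4% of the exonic bases of Psph and was at 251 ± 5.25 and 245 ± 9.33 CPM.

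Shmt1 and Mthfd1, enzymes of the cytosolic branch, fell. Shmt1, the cytosolic serine hydroxymethyltransferase (ENSMUSG00000020534, chr11:60788104-60811718, minus strand), was at 50.1, 49.9 and 53.7 CPM in the controls and at 37.9, 36.5 and 34.1 CPM with AMI-5. All AMI-5 libraries were below all controls. The mean fell by 29.5%, from 51.3 ± 2.14 to 36.2 ± 1.94 CPM (SD, n = 3; log2 fold change -0.50, SE 0.067, edgeR adjusted p = 5.45e-05). Mthfd1, which joins formate to tetrahydrofolate and reduces the product stepwise (ENSMUSG00000021048, chr12:76255298-76319803, plus strand), was at 116, 116 and 107 CPM in the controls and at 92.6, 85.8 and 94.2 CPM with AMI-5. Its groups did not overlap either. The mean fell by 19.6%, from 113 ± 5.55 to 90.9 ± 4.43 CPM (SD, n = 3; log2 fold change -0.31, SE 0.062, edgeR adjusted p = 0.00106). No 50-base word of Mthfd1 was shared with another annotated gene. Its call was lost under the adjustment for GC content and length (log2 fold change -0.13, adjusted p = 0.102).

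Aldh1l1, the cytosolic 10-formyl-tetrahydrofolate dehydrogenase (ENSMUSG00000030088, chr6:90486427-90600203, plus strand), varied most within its groups. It was at 34.1, 35.3 and 23.8 CPM in the controls and at 41.6, 28.5 and 38.4 CPM with AMI-5. The groups overlapped, with the low values in control replicate 3 and in AMI-5 replicate 2. The difference was not called (31.1 ± 6.31 against 36.2 ± 6.85 CPM, SD, n = 3; log2 fold change 0.22, SE 0.20, edgeR adjusted p = 0.393), and the SD was 20.3% of the mean in the controls and 18.9% with AMI-5. The log2 fold change was 0.39 (edgeR adjusted p = 0.0706) without AMI-5 replicate 2, 0.12 (adjusted p = 0.677) without AMI-5 replicate 1 and 0.059 (adjusted p = 0.785) without control replicate 3. AMI-5 replicate 2, which held the liver transcripts, had the lowest level of Aldh1l1 in its group. Gm15756, annotated on the opposite strand over 11.0% of its exonic bases, had no reads in the 6 libraries.

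In the mitochondrial branch 3 genes rose and 1 fell. Aldh1l2, the mitochondrial counterpart of Aldh1l1 (ENSMUSG00000020256, chr10:83487450-83534140, minus strand), was at 25.8, 29.0 and 20.2 CPM in the controls and at 86.1, 101 and 96.4 CPM with AMI-5. The lowest AMI-5 library was far above the highest control. The mean was 3.78-fold higher, at 94.5 ± 7.68 against 25.0 ± 4.48 CPM (SD, n = 3; log2 fold change 1.92, SE 0.12, edgeR adjusted p = 1.52e-06). It was the largest change among the 10 genes. Leaving out any 1 library gave log2 fold changes of 1.78 to 2.04. D10Wsu102e lies on the opposite strand over 14.1% of the exonic bases of Aldh1l2. It was lower with AMI-5 (64.6 ± 1.68 against 58.0 ± 1.73 CPM, SD, n = 3; log2 fold change -0.16, SE 0.056, edgeR adjusted p = 0.0342). Whether reads of one gene were counted for the other was not tested.

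Mthfd2, the mitochondrial methylene-tetrahydrofolate dehydrogenase and cyclohydrolase (ENSMUSG00000005667, chr6:83305691-83325908, minus strand), was at 51.4, 54.8 and 46.5 CPM in the controls and at 87.4, 81.0 and 86.6 CPM with AMI-5. No library of one group reached the range of the other. The mean rose by 66.9%, from 50.9 ± 4.16 to 85.0 ± 3.48 CPM (SD, n = 3; log2 fold change 0.74, SE 0.069, edgeR adjusted p = 2.97e-06). Mthfd1l, which releases formate in mitochondria (ENSMUSG00000040675, chr10:3973118-4167081, plus strand), was at 33.0, 29.2 and 29.3 CPM in the controls and at 37.8, 42.1 and 37.3 CPM with AMI-5. The groups were again apart. The mean rose by 28.3%, from 30.5 ± 2.20 to 39.1 ± 2.65 CPM (SD, n = 3; log2 fold change 0.36, SE 0.080, edgeR adjusted p = 0.00237). Neither Mthfd2 nor Mthfd1l shared a 50-base word with another annotated gene.

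Shmt2, the mitochondrial serine hydroxymethyltransferase (ENSMUSG00000025403, chr10:127517123-127522444, minus strand), went the other way from the rest of its branch. It was at 132, 134 and 121 CPM in the controls and at 101, 104 and 103 CPM with AMI-5. All 3 AMI-5 libraries were below the lowest control, and they lay close together. The mean fell by 20.7%, from 129 ± 6.99 to 102 ± 1.89 CPM (SD, n = 3; log2 fold change -0.34, SE 0.058, edgeR adjusted p = 0.000443). Its processed copy Gm15544 had 1 read in the controls and 400 with AMI-5, and with that copy added the log2 fold change was -0.26 (edgeR adjusted p = 0.00295). Shmt2 has the highest GC content of the 10 genes, 57.9%, and its call was lost under that adjustment (log2 fold change -0.14, adjusted p = 0.0586) and when the trend was drawn through genes with little shared sequence (-0.11, adjusted p = 0.157).

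**Figure D3:**
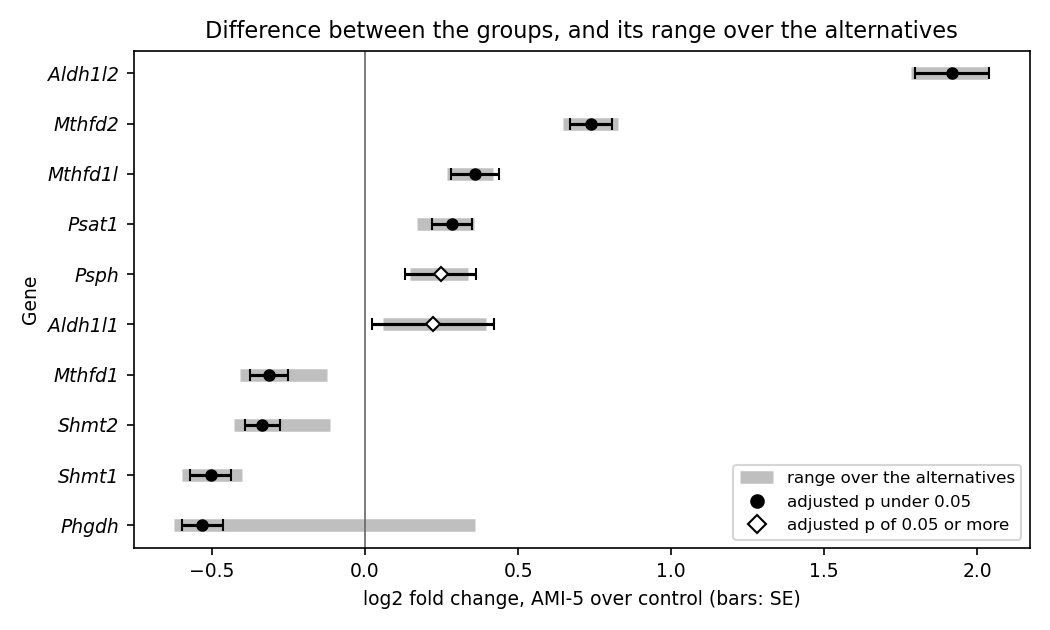
Log2 fold change (AMI-5 over control, horizontal axis) of the 10 enzyme genes from edgeR, with SE as thin bars and the range over all alternative analyses as thick grey bars; filled points have an adjusted p under 0.05. The grey bar of Phgdh alone crosses 0, from -0.62 to 0.36, and Aldh1l2 lies farthest from 0 at 1.92.

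Summed over its genes, the cytosolic branch was at 201, 201 and 184 CPM in the controls and at 172, 151 and 167 CPM with AMI-5. The mitochondrial branch was at 242, 247 and 217 CPM in the controls and at 312, 328 and 323 CPM with AMI-5. The groups were apart for both sums, in opposite directions. Aldh1l2 added more to the mitochondrial rise than any other gene, with means of 25.0 and 94.5 CPM. Mthfd2 and Mthfd1l rose less, and Shmt2 fell from 129 to 102 CPM. The sums thus do not describe each gene of a branch. The 3 serine synthesis genes, counted without copies, summed to 289, 286 and 258 CPM and to 293, 274 and 259 CPM, which overlapped. With the copies of Phgdh and Psat1 added, they summed to 298, 296 and 267 CPM in the controls and to 383, 354 and 344 CPM with AMI-5, with all AMI-5 libraries above the controls. These sums weight each gene by its length and level. Control replicate 3 had the lowest value of its group for 8 of the 10 genes.

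Ratios of a mitochondrial enzyme to its cytosolic counterpart within a library do not depend on scaling between libraries. They were formed from RPKM, the level per kilobase of exon, for 4 pairs. The ratio of Aldh1l2 to Aldh1l1 was 0.456, 0.495 and 0.510 in the controls and 1.24, 2.13 and 1.51 with AMI-5. Aldh1l1 was thus the more abundant of the pair in every control and the less abundant in every AMI-5 library. The mean log2 ratio differed by 1.71 (exact two-sided permutation test, p = 0.1, adjusted over the 4 ratios 0.133), and by 1.50 without AMI-5 replicate 2. With 3 libraries against 3, 0.1 is the smallest p this test can give.

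The ratio of Mthfd2 to Mthfd1 was 0.421, 0.450 and 0.416 in the controls and 0.900, 0.899 and 0.876 with AMI-5. It was the most even of the ratios among the AMI-5 libraries, and the mean log2 ratio differed by 1.06 (exact two-sided permutation test, p = 0.1, adjusted 0.133). For Mthfd1l to Mthfd1 the ratio was 0.213, 0.188 and 0.206 in the controls and 0.306, 0.368 and 0.297 with AMI-5. Mthfd1l stayed below Mthfd1 in every library, and the mean log2 ratio differed by 0.67 (exact two-sided permutation test, p = 0.1, adjusted 0.133). Shmt2 to Shmt1, both of which fell, gave 4.44, 4.54 and 3.80 in the controls and 4.47, 4.82 and 5.07 with AMI-5. These values overlapped, and the mean log2 ratio differed by 0.17 (exact two-sided permutation test, p = 0.2, adjusted 0.2).

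**Figure D4:**
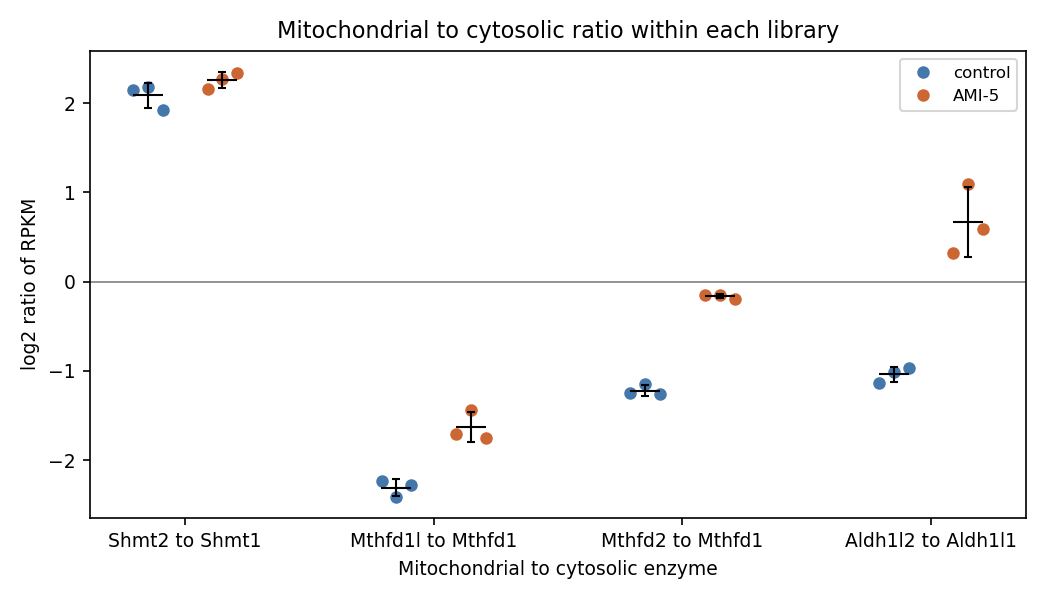
Log2 ratio of the RPKM of a mitochondrial enzyme gene to that of its cytosolic counterpart in each control (blue) and AMI-5 (orange) library, with the mean and SD; at 0 both genes are equally abundant. The groups are apart for the 3 pairs on the right, and the ratio of Aldh1l2 to Aldh1l1 passes 0, from -1.04 to 0.67.

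Compared per length, with the exon lengths of the deposited table, Shmt2 had the highest level in the controls at 56.1 ± 3.03 RPKM and Aldh1l2 the lowest at 3.33 ± 0.597 RPKM (SD, n = 3). Phgdh (47.8 RPKM), Mthfd1 (34.0) and Psat1 (31.9) followed Shmt2 in the controls. Next came Mthfd2 (14.6 RPKM), Shmt1 (13.2), Aldh1l1 (6.88), Mthfd1l (6.87) and Psph (5.50). The ranges of neighbours overlapped for Mthfd1 and Psat1, for Mthfd2 and Shmt1, and for Aldh1l1 and Mthfd1l, and were apart for all other neighbours. With AMI-5, Shmt2 was again first at 44.5 ± 0.820 RPKM, followed by Psat1 (38.8), Phgdh without its copies (33.0), Mthfd1 (27.3), Mthfd2 (24.4) and Aldh1l2 (12.6 ± 1.02), each apart from the next. Shmt1 (9.31 RPKM), Mthfd1l (8.81), Aldh1l1 (8.02) and Psph (6.53) made up the rest, each overlapping its neighbour. Aldh1l2 moved from last to sixth place and Psph became last. With the copies' reads added and the gene's own length kept, Phgdh was first with AMI-5 at 65.8 ± 3.94 RPKM and Shmt2 and Psat1 followed (47.0 and 39.5 RPKM), while in the controls the order held and Phgdh at 51.3 ± 3.26 RPKM overlapped Shmt2 (SD, n = 3). The order rests on the lengths used: with the longest annotated transcript of each gene, only 4 of the 10 genes kept their place in the controls and 4 with AMI-5, and Phgdh came first in the controls at 62.7 RPKM and Psat1 with AMI-5 at 63.1.

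Among other folate enzymes and carriers, 17 of 18 genes were tested. Of these, 1 was higher and 6 were lower, and the median of their log2 fold changes was -0.17. Counts in this and the following lists stand beside 27.5% of all tested genes called higher and 26.6% called lower. Tyms, the thymidylate synthase that uses methylene-tetrahydrofolate, went from 68.6 ± 0.638 to 34.0 ± 1.38 CPM (SD, n = 3; log2 fold change -1.01, edgeR adjusted p = 3.02e-08). The purine synthesis enzymes that take one-carbon units from 10-formyl-tetrahydrofolate also fell, Gart with a log2 fold change of -0.27 (edgeR adjusted p = 0.00102) and Atic with -0.36 (adjusted p = 0.000514). Fpgs, which adds glutamates to folates, fell with a log2 fold change of -0.49 (edgeR adjusted p = 0.000471), a call lost under the adjustment for GC content and length (-0.096, adjusted p = 0.368). The one gene of this list that rose was Slc25a32, the mitochondrial folate carrier, from 8.78 ± 1.06 to 11.2 ± 0.490 CPM (SD, n = 3; log2 fold change 0.35, edgeR adjusted p = 0.0263). Over the 21 alternatives 0 to 3 genes of the list were higher and 2 to 9 lower, with none higher and 9 lower under scaling by library totals alone. Without AMI-5 replicate 3 none was higher, and without control replicate 2 or 3 there were 2. Values of Gart ran from -0.37 to -0.15. Gart shares 15.5% of its 50-base words with other annotated genes, whose reads were not added to it.

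Of 5 tested genes of glycine cleavage and methyl-glycine oxidation, 1 was higher and 1 lower (median log2 fold change 0.15). Amt, the aminomethyltransferase of the glycine cleavage system, fell with a log2 fold change of -0.46 (edgeR adjusted p = 0.00054). Dld, a lipoamide dehydrogenase shared with other complexes, was higher at 0.45 (edgeR adjusted p = 8.13e-05) but -0.19 under the adjustment for GC content and length. Sardh, the sarcosine dehydrogenase, was not called (log2 fold change 0.15, edgeR adjusted p = 0.0769), but was called higher in 10 of 21 alternatives, with 0.21 (adjusted p = 0.0316) without AMI-5 replicate 3 and 0.41 (adjusted p = 0.000149) under the adjustment for GC content and length. Over the alternatives 1 to 3 genes of this list were higher (2 when any 1 control or AMI-5 replicate 3 was left out) and 1 to 3 lower (3 under that adjustment). Of 19 tested genes that carry or use serine and glycine, 9 were higher and 2 lower (median 0.13). Without control replicate 2 the number higher was 5, and the number lower was 4 without control replicate 3 and 1 without AMI-5 replicate 2. The exchanger Slc1a4, which carries serine, rose from control levels of 28.4, 34.6 and 27.1 CPM to AMI-5 levels of 48.6, 50.4 and 46.9 CPM (log2 fold change 0.70, edgeR adjusted p = 4.04e-05), and the glycine transporter Slc6a9 rose at 0.37 (adjusted p = 0.00022). Sars2, the mitochondrial seryl-tRNA synthetase, fell at -0.75 (edgeR adjusted p = 0.000104). Values of Slc6a9 ran from 0.27 to 0.61 and those of Sars2 from -0.84 to -0.31 over the alternatives. Slc6a9 shares 26.3% of its 50-base words with other annotated genes, whose reads were not added to it. Slc38a2, an amino acid carrier with 1 of the 2 highest means of the list, was not called (0.03, edgeR adjusted p = 0.625), but was called lower under the adjustment for GC content and length (-0.26, adjusted p = 0.000971). Under the same adjustment 5 genes of this list were higher and 3 lower, and Serinc1 (0.32) and Serinc3 (0.23), membrane proteins named for serine incorporation, stood at -0.070 and -0.0097.

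Of 10 purine synthesis genes, 4 were higher and 2 lower (median log2 fold change 0.097), beside 27.5% and 26.6% of all genes tested. The balance turned under other processing, to 2 higher and 4 lower under the adjustment for GC content and length and to 2 higher and 3 lower under scaling by library totals alone. Prps1 (0.55, edgeR adjusted p = 0.000535) and Prps2 (0.33, adjusted p = 0.000542), which make the ribose phosphate donor, rose, but neither was called under the adjustment for GC content and length, with Prps1 at -0.050 (adjusted p = 0.63) and Prps2 at 0.086 (adjusted p = 0.230). Paics rose too (0.17, edgeR adjusted p = 0.0182; 0.14, adjusted p = 0.0934 without control replicate 2; 0.077, adjusted p = 0.252 with library totals alone). Adss was not called (0.12, edgeR adjusted p = 0.0882); over 21 alternatives it was called higher in 4 and lower in 2, with -0.27 (adjusted p = 0.000711) under the adjustment for GC content and length. Pfas fell at -0.47 (edgeR adjusted p = 0.000127), as did Impdh2, of the branch to guanine nucleotides, at -0.50 (adjusted p = 0.000519). Over the alternatives their values ran from -0.56 to -0.25 and from -0.59 to -0.29. Impdh2 shares 39.3% of its 50-base words with other annotated genes. Reads of those genes were not added to it, and fits of genes with little shared sequence left it out, so its value is uncertain.

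Several genes of serine and mitochondrial folate metabolism are known targets of Atf4, the transcription factor of the integrated stress response. Of a list of 22 genes made of Atf4 and other genes known as its targets, which holds none of the 10 enzymes, 17 were higher and 3 lower (median of the log2 fold changes 0.65). Atf5, a related factor, rose from 135 ± 9.71 to 275 ± 15.1 CPM (SD, n = 3; log2 fold change 1.03, edgeR adjusted p = 1.20e-07), and Ddit3, a stress response factor, from 17.3 ± 1.07 to 49.4 ± 6.34 CPM (1.51, adjusted p = 1.51e-07). Nupr1 (1.11), Vldlr (1.17) and Slc3a2 (0.63), the heavy chain of amino acid exchangers, rose as well, and Ddit4, an inhibitor of mTORC1 signalling, fell at -0.57 (edgeR adjusted p = 6.84e-06). Values over the alternatives ran from 0.89 to 1.63 for Ddit3 and from -0.91 to -0.37 for Ddit4. This list was chosen with earlier results of these samples known and is not independent evidence of its direction. All 16 genes of a list for mitosis and for DNA replication, which draws on thymidylate, were lower (median -0.63), 15 without AMI-5 replicate 3. They ranged from -1.12 for Cdc20 to -0.21 for Mcm6, with Plk1 at -1.11, Mcm7 at -1.04, Bub1b at -0.94 and Top2a at -0.65. Mcm7, Cdc20 and Plk1 share 23.3%, 10.6% and 10.4% of their 50-base words with other annotated genes, whose reads were not added.

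**Figure D5:**
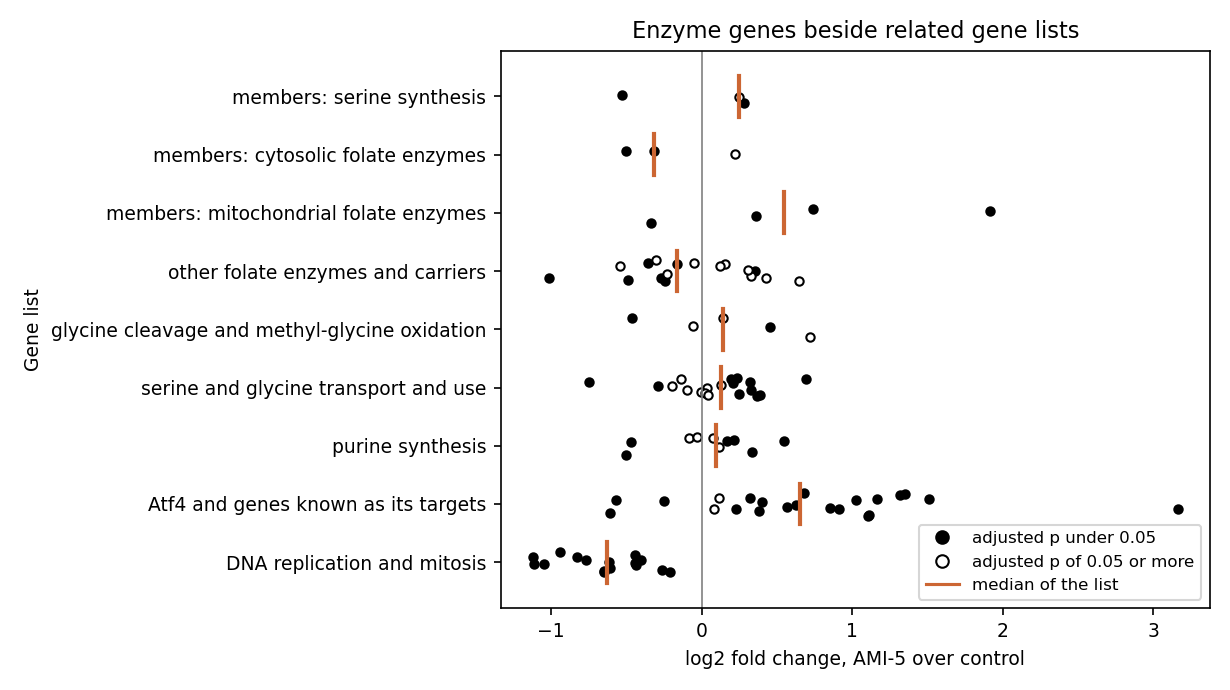
Log2 fold change (AMI-5 over control) of every tested gene, in rows for the 10 enzyme genes by role and for the 6 related lists; filled points have an edgeR adjusted p under 0.05 and vertical lines are list medians. The medians run from -0.63 for DNA replication and mitosis to 0.65 for Atf4 and its targets.

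The genes whose profile over the 6 libraries was nearest to that of Phgdh, by Euclidean distance of log2 CPM centred on each gene's mean among 14196 protein-coding genes, were Pacsin3 (distance 0.0733), Bbc3 (0.0745) and Cpm (0.0765). For Mthfd2 they were Zmat1 (0.0833), Retreg1 (0.102) and Il13ra1 (0.104). Their log2 fold changes were -0.52, -0.50 and -0.50 for the first 3 and 0.75, 0.72 and 0.72 for the others. That these lie near the values of Phgdh and Mthfd2 follows from the choice by distance and is not a separate result. The copies of Phgdh are not part of its profile here.

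RefSeq promoter windows of GRCm38.p6, from 250 bases before to 50 bases after a start site, were found for 9 of the 10 genes, in 10 windows; Aldh1l2 was the one without an entry. Searched on both strands, 0 of the 9 genes held TGATGNAA, the core of the composite element bound by Atf4 with C/EBP factors, in a window, against 3.97% of 32851 mouse promoter windows of this length. The E-box CACGTG was likewise in 0 of them, against 7.15% of the windows. This says only that these letters are not in these 300 bases.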

How the data were processed

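Read counts per gene were deposited by the authors for all 6 libraries in 1 table, not normalized. The submitters' processing notes name featureCounts 1.6.2, GSNAP 2018-05-30, bcl2fastq 2.19.1 and build mm10, and the table's name gives Ensembl release 87. Strand-specific libraries were made, per the labels' protocols. Not given in the sources used here are the read length, the counting's strand setting and its handling of reads that fit several places. Of 49763 entries, 92 spike-ins with 1 read were left out. Symbols, classes and shared 50-base words came from GENCODE M21 of mm10, which gave a symbol for 49326 genes.

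The main test was edgeR 4.0.16 in R 4.3.3 (TMM, filterByExpr by group, robust quasi-likelihood F test, two-sided, Benjamini-Hochberg over 17519 genes, group as the only term). The common biological coefficient of variation was 9.65%. CPM and RPKM were computed from the deposited counts with TMM-adjusted library sizes, and RPKM with the deposited exon lengths. SE is an approximate standard error, the size of the log2 fold change divided by the square root of the test's F statistic. Ratios were tested by exact permutation (scipy 1.17.1). The code was tested on simulated data.

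The 10 genes, the lists and the markers were chosen with earlier results of these data known. Named from each list are up to 4 called genes of smallest p, up to 2 of largest mean level and, for Phgdh and Mthfd2, the 3 nearest profiles. Alb, Slc25a32, D10Wsu102e, Cct6a, Gm15756 and the copies are named outside that rule, after their values were seen. Alternatives were scaling by RLE, by upper quartile or by totals alone, 2 other filters on low counts and the replicate number as a block. DESeq2 1.42.0 and limma 3.58.1 voom were run too. Others were protein-coding genes with under 5% of shared words only (genes with little shared sequence) and removal of GC and length trends (natural splines). The last were thinning to the smallest library and leaving out each library. Summing genes with their processed copies, and leaving out pseudogenes, were added after seeing the data. Chi-square per degree of freedom between 2 libraries of 1 group was 7.23 to 17.5, above counting noise.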

Additional observations from a re-analysis of the deposited data

How the results depend on the processing

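Over 21 alternatives, 191 of 202 values of the 10 enzyme genes kept their direction and their side of the threshold, 5 gained a call, 5 lost one and 1 turned. The one that turned was Phgdh, with a log2 fold change of 0.36 when summed with its processed copies. Psph gained a call with upper-quartile scaling (0.30), without a filter on low counts (0.27), after adjustment for GC content and length (trend through all genes, 0.34), with that adjustment and the replicate block (0.33) and without AMI-5 replicate 3 (0.33, adjusted p = 0.0487). With the trend drawn through all genes, through genes with little shared sequence, or through all genes with the replicate block, 2 enzyme genes were lower; Mthfd1 was outside the threshold in the first and the last and Shmt2 in all 3, and the cause was not tested. The fits of genes with little shared sequence tested 6 of the 10, with 3 lower before that adjustment, and left out Phgdh.

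The count of 9472 calls over all genes was 5228 (2495 higher, 2733 lower) with only protein-coding genes with little shared sequence. It was 4182 (1659 higher, 2523 lower) when these were also adjusted for GC content and length, with fewer genes tested in both. Scaling by totals alone gave 3962 higher and 5883 lower genes, a share of 40.2% higher against 50.9%, and the adjusted fit of genes with little shared sequence 39.7%. Other alternatives gave up to 57.5%, without a filter on low counts (6248 higher, 4617 lower). Leaving out 1 library gave 8435 to 9060 calls. With the longest transcript as length, 4 genes kept their place in the order of levels in each group; with copies added, 10 did in the controls and 7 with AMI-5. The 4 isozyme ratios kept their direction when each library was left out. They were also formed from raw counts, where only gene length drops out, so that run could hardly differ. The adjustment for GC content and length and the sums with copies were not run on the ratios.

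Among 633 values of the 31 named genes of other lists, 592 kept direction and side, 14 gained and 12 lost a call, and 15 turned. Those were Slc38a2 with totals alone (-0.059), adjusted through all genes (-0.26, a call), through genes with little shared sequence (-0.12) and through all genes with the block (-0.26). Adjusted through all genes, without and with the block, Dld was at -0.19 and -0.20, Serinc1 at -0.070 and -0.070, Serinc3 at -0.0097 and -0.0090, Prps1 at -0.050 and -0.049, and Adss at -0.27 and -0.27 (-0.14 through genes with little shared sequence). Of 252 counts of calls in lists, 47 moved by over 1.5 times.

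Deviations of same-numbered libraries correlated at -0.058, -0.038 and -0.048, and no library correlated best with its own number. No pairing by replicate number was thus seen, though a weak one could be missed with 3 libraries per group. The replicate block gave 9186 calls (4704 higher, 4482 lower), with 4 enzyme genes higher and 4 lower. Depth limits Psph, Aldh1l1 and Aldh1l2 most, with 269, 314 and 266 reads in their lowest libraries.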
